A study of Mus musculus with 4 samples.

Results

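The genes described here are the histone methyltransferases and demethylases of the embryonic mouse brain, with their close relatives among the arginine methyltransferases and the PRDM family. Members were taken by gene symbol alone: protein-coding genes listed in both deposited tables whose names begin with Kdm1 to Kdm8, Kmt2, Kmt5, Setd1 to Setd8, Setdb, Nsd1 to Nsd3, Ehmt, Suv39, Prmt or Prdm, together with Dot1l. Of 19150 genes in both tables, 56 fitted this rule after 7 genes that match the pattern were set aside, and all 56 held enough reads to be tested. Brains of C57BL/6 embryos at E13.5 (embryonic day) were sequenced from 2 knockout (KO2, KO4) and 2 wild-type (WT6, WT8) samples, and the title of the series names macroH2A as the deleted protein. The labels give neither the gene or exons targeted nor whether the deletion was present in every cell, and they do not say whether the embryos came from separate litters, so the p-values cover variation among these 4 samples only, and that may be technical. The authors placed 1 KO beside 1 WT library in each table, KO2 with WT6 and KO4 with WT8.

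Methyl groups on histone tails are added by writers and removed by erasers, and the position and number of the methyl groups sets which reader proteins bind. Lysine writers mostly share a catalytic SET domain, Dot1l being the exception, while erasers are either flavin-dependent amine oxidases (the Kdm1 proteins) or oxygenases with a JmjC domain. H3K4 methylation marks promoters and enhancers in use, H3K36 and H3K79 methylation mark transcribed gene bodies, H3K27 and H3K9 methylation mark silenced regions, and H4K20 methylation is tied to the cell cycle and to compact chromatin. PRDM proteins carry a PR domain related to SET beside zinc fingers, and many of them act as transcription factors with a regional pattern in the nervous system. In the deposited tables the first Pfam domain given was SET, Pre-SET or N-SET for 25 of the 56 genes and a zinc finger of the C2H2 kind for 6.

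The libraries held between 16470090 and 18136745 reads, of which the 56 genes took 0.512% to 0.547%. H2afy, which encodes macroH2A1, had 1368 (KO2) and 1267 (KO4) reads against 5538 (WT6) and 5593 (WT8), a log2 change of -2.22 with an SE of 0.10 and an edgeR adjusted p of 0.00167. Without WT6 the change was -2.29 and its adjusted p 0.314. H2afy2, which encodes macroH2A2, stood at 0.08 (SE 0.09, adjusted p = 0.799). Xist, the transcript of the inactive X chromosome, had 6 (KO2), 19 (WT6), 8105 (KO4) and 6094 (WT8) reads, so the deposited pair and the Xist split cannot be told apart. All 8 listed markers of progenitors and all 6 of neurons had reads in every library, whereas En1 and En2 and 7 genes of the hindbrain and dorsal neural tube were not among the genes in both tables. The 6 ventral forebrain markers summed to 580 CPM (read counts scaled to a common library size with TMM factors) in WT6 and 913 to 1054 CPM in the other libraries, and the 6 dorsal telencephalon markers to 2077 CPM in WT6 and 1529 to 1636 CPM in the others. In bulk tissue, fewer cells of a type and less RNA per cell cannot be told apart.

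Transcript levels differed far more between these genes than between libraries. Levels of different genes are compared here as CPM per kb of exon, over the merged exons of each gene in GENCODE M21. Prmt1 (ENSMUSG00000109324, chromosome 7, 44975989 to 44986568 on GRCm38), the main enzyme of asymmetric arginine dimethylation, was the most abundant at 171 ± 16.3 CPM per kb (mean ± SD, n = 4 libraries). Ehmt2, the H3K9 dimethyltransferase also called G9a, followed at 78.9 ± 5.43 and Kdm1a, the H3K4 demethylase also called LSD1, at 56.9 ± 2.31 CPM per kb. Prmt2 at 45.7 ± 2.26, Kmt5c at 41.7 ± 5.07, Kdm4a at 37.6 ± 2.98, Prmt5 at 32.5 ± 1.54 and Kdm4b at 32.5 ± 2.62 CPM per kb came next. At the low end, below Setdb2 (1.16 ± 0.201 CPM per kb), stood PRDM genes, among them Prdm9, the meiotic recombination factor, at 0.819, Prdm13 at 0.211 ± 0.118 and Prdm1 at 0.128 ± 0.0275.

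**Figure D1:**
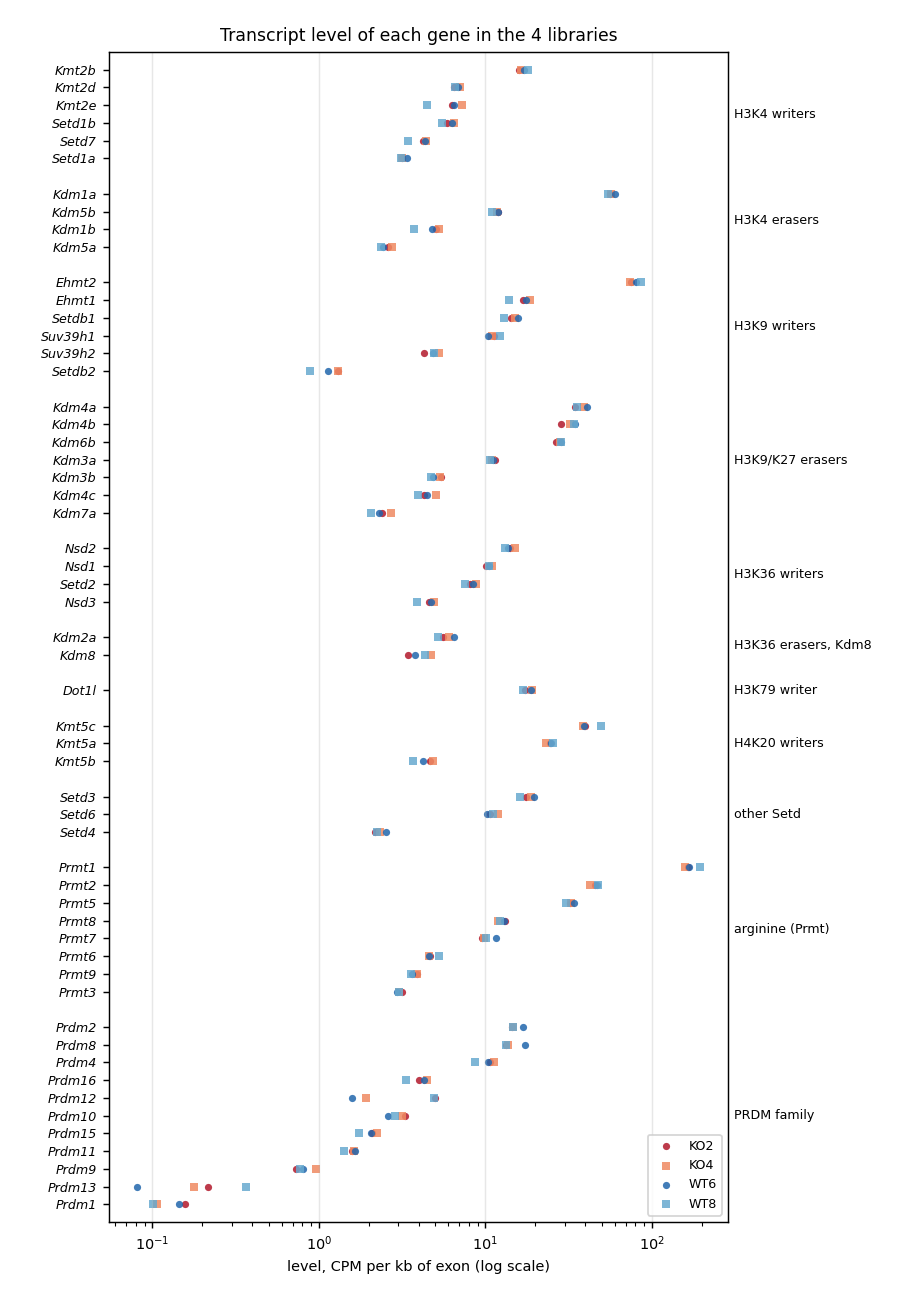
Level of the genes described here in CPM per kb of exon (log axis), with 1 point per library: red circles KO2, orange squares KO4, dark blue circles WT6, light blue squares WT8, grouped by substrate. The 4 points of a gene lie close together except for Prdm12 and Prdm13, and Prmt1 is the highest gene at 171 CPM per kb on average.

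No member passed the test for a difference between KO and WT brains in either direction. The edgeR quasi-likelihood test, fitted on 15708 genes with Benjamini-Hochberg adjustment over all of them, called 0 of the 56 genes higher and 0 lower at an adjusted p under 0.05, beside 0% of all tested genes called higher and 0.00637% called lower. One member had an unadjusted p under 0.05 (Kmt5b), a share of 1.79% beside 4.7% of all tested genes, and the smallest adjusted p of a member was 0.743. DESeq2 and limma-voom called no member either, with 0 and 1 members at an unadjusted p under 0.05. The median log2 fold change of the 56 was 0.03, with 34 above 0, and that of all tested genes was -0.01, with 48.9% above 0. For 12 members (21.4%, beside 20.1% of all tested genes) each KO library exceeded each WT library, and for 9 the order was the opposite (16.1%, beside 19.4%).

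The intervals give the range of change that the fit allows for each gene on its own, over these libraries only. They are not adjusted for the number of genes and do not bound an effect of the genotype in other brains. The median 95% interval of a member reached 0.27 on the log2 scale to either side, against 0.34 over all tested genes. For 45 members the whole interval lay within 0.5 of 0, and for 53 (94.6%, beside 79.7% of all tested genes) within 1. The members' median level was 64.3 CPM, against 22.4 CPM over all tested genes, and the part of level in these widths was not tested. The 3 members whose interval passed 1 were Prdm1, Prdm12 and Prdm13, of which Prdm1 and Prdm13 had means under 1 CPM.

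**Figure D2:**
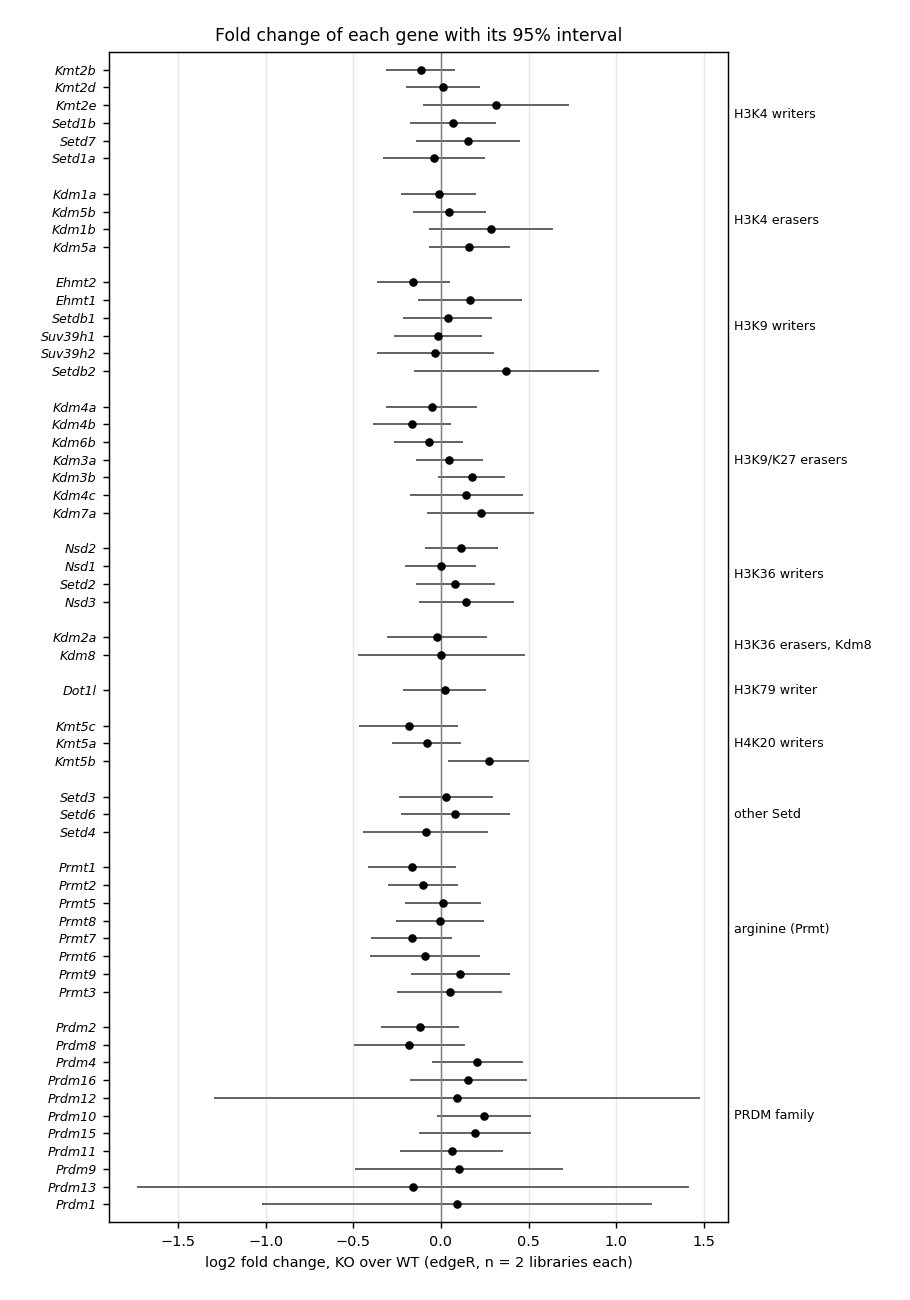
Log2 fold change of KO over WT for the genes described here (points), each with its 95% interval from edgeR (bars), n = 2 libraries of each genotype, grouped by substrate. The interval of Kmt5b is the one that lies wholly on one side of 0, and those of Prdm12, Prdm13 and Prdm1 are the widest.

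Differences between genotypes are given below as log2 fold changes of KO over WT, also where a gene is said to stand at a value. Among the genes grouped here as H3K4 writers, Kmt2e included, 0 of 6 passed the test, 4 lay above 0 and the median log2 fold change was 0.04. The grouping does not rest on measured activity. Kmt2e (ENSMUSG00000029004, chromosome 5, 23434441 to 23504235), whose PHD finger binds trimethylated H3K4, had 65.8 (KO2) and 76.4 (KO4) CPM in KO and 67.7 (WT6) and 46.5 (WT8) CPM in WT. WT8 alone was low and WT6 lay above KO2, so the genotypes overlapped. The log2 fold change was 0.31 (SE 0.18, edgeR adjusted p = 0.743), and it was 0.074 without WT8 and 0.61 without WT6. Kmt2b, which methylates H3K4 at promoters, had 154 and 158 CPM in KO and 165 and 173 CPM in WT, which is a log2 difference of -0.12 (adjusted p = 0.745). The enhancer enzyme Kmt2d stood at 0.01, the monomethyltransferase Setd7 at 0.15, and the paralogs Setd1a and Setd1b, catalytic subunits of the main H3K4 trimethylating complexes, at -0.04 and 0.07. Setd1a had 21.5 (KO2) and 21.5 (KO4) CPM against 23.1 (WT6) and 21.2 (WT8), and Setd1b 71.1 (KO2) and 78.3 (KO4) CPM against 76.4 (WT6) and 66.1 (WT8). Of the exon length of Setd1a 51.8% is shared with Gm49388 on its own strand, so its level per length may be too low and the levels of this pair are not compared.

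Of the H3K4 erasers, 0 of 4 passed and 3 lay above 0. WT8 was the lowest library for all 4. Kdm1b, the second amine oxidase of the family, had 28.0 (KO2) and 29.1 (KO4) CPM in KO and 26.4 (WT6) and 20.4 (WT8) CPM in WT, which is a log2 difference of 0.29 (SE 0.15, adjusted p = 0.743). Both KO libraries were above both WT libraries, by a small margin over WT6, and the value was 0.12 without WT8 and 0.48 without WT6. Its exons overlap those of Dek on the opposite strand over 505 bases (9.19% of its exon length), and Dek also had its fewest reads in WT8 (722, against 1172 to 1689). Kdm1a, which works with CoREST proteins to silence neuronal genes outside neurons, had 290 and 296 CPM in KO and 310 and 282 CPM in WT, which is a log2 difference of -0.01 and a 95% interval of -0.23 to 0.20. The JmjC erasers Kdm5a and Kdm5b stood at 0.16 (interval -0.07 to 0.40) and 0.05 (interval -0.16 to 0.26). Kdm5a had 36.9 (KO2) and 39.0 (KO4) CPM against 34.5 (WT6) and 33.3 (WT8), and Kdm5b 197 (KO2) and 195 (KO4) CPM against 199 (WT6) and 181 (WT8). Kdm5b exceeded Kdm5a per length 4.42 ± 0.202 times in KO and 4.78 ± 0.193 times in WT.

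The H3K9 writers, again with 0 of 6 called, spread to both sides of 0 around a median of 0.01. Ehmt2 (ENSMUSG00000013787, chromosome 17, 34898469 to 34914052) had 411 (KO2) and 408 (KO4) CPM in KO and 442 (WT6) and 471 (WT8) CPM in WT. Both KO libraries were below both WT libraries, and the log2 fold change of -0.16 (SE 0.09, adjusted p = 0.743) did not pass. Its partner Ehmt1 (GLP) had 136 and 151 CPM in KO and 142 and 113 CPM in WT, with WT8 again low, a log2 fold change of 0.17 (0.019 without WT8, 0.34 without WT6). The ratio of Ehmt2 to Ehmt1 per length was 4.23 ± 0.33 in KO and 5.37 ± 1.09 in WT (mean ± SD, n = 2 each), and WT8 at 6.14 stood apart from the other libraries. Setdb1, the enzyme of H3K9 trimethylation that Trim28 recruits, stood at 0.04 and an interval of -0.22 to 0.29. Setdb2, on 57 to 97 reads per library, had 5.29 and 5.29 CPM in KO and 4.59 and 3.57 CPM in WT, at 0.37 (SE 0.22, adjusted p = 0.743). This was the largest value of a member with all 4 libraries, but it was 0.21 without WT8 and 0.57 without WT6. Among the members named by the rule given below, Prdm10 (0.31) and Prdm12 (1.13) exceeded Setdb2 without WT8, and Kmt2e (0.61) without WT6. The enzymes of pericentric heterochromatin, Suv39h1 and Suv39h2, stood at -0.02 and -0.03. Suv39h1, the 1 member on the X chromosome, had 60.0 (KO2) and 57.7 (KO4) CPM in KO and 54.5 (WT6) and 64.7 (WT8) CPM in WT, and its level did not divide the libraries as Xist did. Suv39h2 had 19.0 (KO2) and 23.1 (KO4) CPM against 21.3 (WT6) and 21.8 (WT8), so the genotypes overlapped.

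JmjC enzymes that remove H3K9 or H3K27 methyl groups numbered 7, and 0 passed, with 4 above 0 and a median of 0.05. Kdm3b had the smallest p of the group, with 77.0 (KO2) and 75.6 (KO4) CPM in KO and 68.9 (WT6) and 66.3 (WT8) CPM in WT. Both KO values were above both WT values, at a log2 fold change of 0.17 (SE 0.08, adjusted p = 0.743). Kdm4b, which demethylates H3K9 and H3K36, was arranged the other way, with 141 and 159 CPM in KO and 169 and 167 CPM in WT, which is a log2 difference of -0.16. Its paralogs Kdm4a and Kdm4c stood at -0.05 and 0.15, Kdm3a at 0.05 and Kdm7a at 0.23. Kdm4a, the most abundant of the group per length, had 201 (KO2) and 227 (KO4) CPM against 237 (WT6) and 206 (WT8). Kdm6b, an H3K27 demethylase needed in neural differentiation, had 184 and 195 CPM in KO and 200 and 199 CPM in WT, which is a log2 difference of -0.07 and an interval of -0.27 to 0.13.

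For H3K36 and H3K79 the log2 fold changes were small. The writers Nsd1, Nsd2, Nsd3 and Setd2, of which the last adds the trimethyl mark behind elongating polymerase, stood at 0.00, 0.12, 0.14 and 0.08, and 0 of 4 passed. Nsd2 had 238 and 254 CPM in KO and 231 and 222 CPM in WT (adjusted p = 0.748), and KO4 was the highest library for all 4 genes. The eraser Kdm2a, which has a CXXC finger for unmethylated CpG, had 80.5 (KO2) and 87.1 (KO4) CPM in KO and 94.3 (WT6) and 75.8 (WT8) CPM in WT, which is a log2 difference of -0.02 (adjusted p = 0.968). Kdm8, a JmjC protein whose action on histones is debated, stood at 0.00 and an interval of -0.48 to 0.48. Dot1l, the H3K79 writer, had 150 and 166 CPM in KO and 165 and 147 CPM in WT, which is a log2 difference of 0.02 (adjusted p = 0.961). SET proteins better known for other substrates or of uncertain role were at 0.03 (Setd3, an actin histidine methyltransferase), -0.09 (Setd4) and 0.08 (Setd6). Setd3 had 106 (KO2) and 114 (KO4) CPM against 119 (WT6) and 97.1 (WT8), and Setd6 20.4 (KO2) and 22.6 (KO4) CPM against 19.4 (WT6) and 21.2 (WT8), with overlap between the genotypes in both.

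The H4K20 writers held the member nearest to the threshold. Kmt5b (ENSMUSG00000045098, chromosome 19, 3767421 to 3818303), which with its paralog Kmt5c turns monomethylated H4K20 into the di- and trimethylated forms, had 69.2 (KO2) and 72.0 (KO4) CPM in KO and 62.4 (WT6) and 54.4 (WT8) CPM in WT. Both KO libraries were above both WT libraries, with WT8 the lowest. Its log2 fold change was 0.27 (SE 0.10, interval 0.04 to 0.51, unadjusted p = 0.0267, edgeR adjusted p = 0.743), so the difference did not pass over all genes. Kmt5c (ENSMUSG00000059851, chromosome 7, 4740115 to 4747514) had 158 (KO2) and 155 (KO4) CPM in KO and 158 (WT6) and 197 (WT8) CPM in WT, and here WT8 was the high library and the other 3 lay within a few CPM of each other. Its log2 fold change was -0.18 (SE 0.12, adjusted p = 0.743), and it was -0.0095 without WT8 and -0.34 without WT6. Kmt5c exceeded Kmt5b per length 8.43 (KO2) and 7.91 (KO4) times in KO and 9.33 (WT6) and 13.4 (WT8) times in WT, so the ratio was lower in both KO libraries than in both WT libraries by a margin that rested mostly on WT8. The monomethyltransferase Kmt5a stood at -0.08 (130 and 123 CPM in KO, 132 and 137 CPM in WT).

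The longest transcript held 47.0% G+C for Kmt5b and 60.0% for Kmt5c, and the G+C share of transcripts went with the fold changes. The stretches before the start sites of this pair are shown for that reason. Each is the 250 bases upstream of a RefSeq start site on GRCm38.p6, 5′ to 3′ on the strand of the gene, with every CG dinucleotide in capitals, Kmt5b from chr19:3767171-3767420 (plus strand) and Kmt5c from chr7:4739877-4740126 (plus strand).
Kmt5b: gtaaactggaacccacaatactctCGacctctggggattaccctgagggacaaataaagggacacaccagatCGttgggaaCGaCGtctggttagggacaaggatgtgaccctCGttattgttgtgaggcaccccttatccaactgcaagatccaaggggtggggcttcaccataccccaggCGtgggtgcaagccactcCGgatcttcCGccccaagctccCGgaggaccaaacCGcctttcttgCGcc
Kmt5c: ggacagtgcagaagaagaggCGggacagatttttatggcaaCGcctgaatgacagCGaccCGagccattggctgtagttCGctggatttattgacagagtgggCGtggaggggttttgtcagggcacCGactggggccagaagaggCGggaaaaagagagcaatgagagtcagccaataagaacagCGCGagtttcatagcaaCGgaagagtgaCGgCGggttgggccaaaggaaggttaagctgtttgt
These hold 11 and 13 CG dinucleotides. Their G+C share was 56.4% for Kmt5b and 53.6% for Kmt5c, so the stretches do not repeat the order of the transcripts. Among the 43 members found in the RefSeq promoter table by symbol the median was 17 (range 0 to 56), against a median of 6 over all 32851 promoters of that length. An observed-over-expected CpG ratio of 0.6 was reached by 36 members (83.7%) and by 34.0% of all promoters. Each member gave the 1 promoter nearest its deposited start, while all promoters include alternative starts and genes of any expression. The sets are therefore not matched. The letters CG occurred in 97.7% of the members' promoters and 92.1% of all promoters, and TATAAA on either strand in 1 (Prmt2) and in 12.4% of all. The RefSeq start lay 69753 bases from the start in the deposited tables for Prdm1 and 13671 bases for Prdm8. These are counts of letters and say nothing of which proteins bind there.

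Of the arginine methyltransferases 0 of 8 passed, 3 were above 0 and the median was -0.05. Prmt1 had 565 (KO2) and 540 (KO4) CPM in KO and 571 (WT6) and 667 (WT8) CPM in WT, with WT8 the high one and WT6 barely above KO2, a log2 fold change of -0.16 (SE 0.11, adjusted p = 0.743), or -0.042 without WT8 and -0.27 without WT6. Prmt5, the main enzyme of symmetric dimethylation, had 128 and 130 CPM in KO and 136 and 121 CPM in WT, which is a log2 difference of 0.01 and an interval of -0.21 to 0.23. Prmt7, which adds a single methyl group, had 58.7 and 60.1 CPM in KO and 71.3 and 62.1 CPM in WT, which is a log2 difference of -0.17 (adjusted p = 0.743). Prmt8, a membrane-anchored enzyme of neurons, averaged 34.4 CPM (SD 2.27) over the KO and 34.5 CPM (SD 1.38) over the WT libraries (n = 2 each), at -0.01. The others were Prmt2 at -0.10, Prmt6 at -0.09, Prmt3, which acts on a ribosomal protein, at 0.05, and Prmt9, which acts on a splicing factor, at 0.11.

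In the PRDM family 9 of 12 members lay above 0, with a median of 0.09, and 0 passed. Prdm10 had 30.8 (KO2) and 29.4 (KO4) CPM in KO and 24.3 (WT6) and 26.5 (WT8) CPM in WT, both KO libraries above both WT libraries, at a log2 fold change of 0.25 (SE 0.11, adjusted p = 0.743). Prdm16, which maintains radial glia, had 37.3 and 41.8 CPM in KO and 39.8 and 31.1 CPM in WT, so the genotypes overlapped (0.16, adjusted p = 0.775). Prdm8, a factor of cortical neurons and their progenitors, had 64.7 (KO2) and 66.6 (KO4) CPM in KO and 84.3 (WT6) and 64.4 (WT8) CPM in WT. WT6 alone was high, the log2 fold change was -0.18 (SE 0.13, adjusted p = 0.747), and without WT6 it was 0.03. WT6 was also the library with the highest sum of dorsal telencephalon markers (2077 CPM), whose part in the Prdm8 value was not tested. Prdm2 stood at -0.12, Prdm4 at 0.21, Prdm15 at 0.19, Prdm11 at 0.06, Prdm9 at 0.10 and Prdm1 at 0.09. The most abundant of the family per length was Prdm2 at 15.2 ± 1.11 CPM per kb, with 107 (KO2) and 109 (KO4) CPM against 125 (WT6) and 110 (WT8). Listed in 1 table alone were Prdm6, with 3 reads in KO2 and 1 in WT6, and Kdm4d, with 2 in KO4 and 1 in WT8.

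Prdm12 and Prdm13 were the members that varied most between brains, and the high and low libraries did not follow the genotype. Prdm12 (ENSMUSG00000079466, chromosome 2, 31640037 to 31655795) is known for pain-sensing neurons and for Pomc neurons of the hypothalamus, and Prdm13 (ENSMUSG00000040478, chromosome 4, 21677480 to 21685963) for the dorsal neural tube and hypothalamus. Prdm12 had 226 (KO2) and 87 (KO4) reads in KO and 67 (WT6) and 195 (WT8) reads in WT, or 12.3, 4.75, 3.89 and 12.2 CPM. Each genotype had 1 high and 1 low library. In the authors' deposited table its log2 fold change was 1.67 for KO2 over WT6 (adjusted p = 7.89e-18) and -1.30 for KO4 over WT8 (adjusted p = 3.88e-12). It was the single member that their table marks as significant in either pair, beside 1.93% and 5.07% of the genes in both tables, and it was marked in opposite directions. Over all 4 libraries its log2 fold change was 0.09 and an interval of -1.30 to 1.48 (edgeR adjusted p = 0.972), and without single libraries it ranged from -0.75 (without KO2) to 1.13 (without WT8). Prdm13, with 17, 14, 6 and 25 reads in KO2, KO4, WT6 and WT8, was also lowest in WT6 but highest in WT8, at a log2 fold change of -0.16 (interval -1.73 to 1.42), and was not marked by the authors in their deposited table. For the other 54 members the highest library exceeded the lowest 1.06 to 1.64 times, with a median of 1.18.

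Regional markers also varied between these brains. A list of 8 hypothalamic and eye-field genes, chosen after the Prdm12 values were seen, had 6 tested members that summed to 174 (KO2), 142 (KO4), 60.5 (WT6) and 234 (WT8) CPM. Of this, Nkx2-1 held 97.5 (KO2), 71.3 (KO4), 16.9 (WT6) and 118 (WT8) CPM. Nkx2-1 is also on the ventral forebrain list, so the lists are not independent. Rax was not among the genes in both tables, and Six6 had 7, 0, 0 and 84 reads. WT6 had the lowest and WT8 the highest sum, as for Prdm13, while the sum in KO4, low for Prdm12, was nearer to that in KO2 than to that in WT6. Pomc itself had 58, 53, 61 and 144 reads in KO2, KO4, WT6 and WT8, the fewest in KO4. Of 8 sensory ganglion genes chosen at the same time, 5 were tested and summed to 20.7 CPM in WT6 and 45 to 56.6 CPM in the others, most of it Isl1, which the ventral forebrain also expresses. Gm13425, an antisense RNA whose exons overlap 200 bases of Prdm12, had 82, 67, 67 and 95 reads, and whether strand was used in counting is not stated. The part of any of these in the Prdm12 values was not tested.

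The stretches upstream of both genes are given because these were the 2 members whose log2 ratios were at least 0.5 in opposite directions in the deposited pairs, in the same form as above, Prdm12 from chr2:31639787-31640036 (plus strand) and Prdm13 from chr4:21685964-21686213 (minus strand).
Prdm12: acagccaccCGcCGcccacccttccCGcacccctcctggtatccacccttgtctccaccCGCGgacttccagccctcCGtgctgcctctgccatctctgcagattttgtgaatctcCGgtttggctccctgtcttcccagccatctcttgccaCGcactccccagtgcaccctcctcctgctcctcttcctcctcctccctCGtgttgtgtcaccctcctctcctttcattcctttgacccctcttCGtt
Prdm13: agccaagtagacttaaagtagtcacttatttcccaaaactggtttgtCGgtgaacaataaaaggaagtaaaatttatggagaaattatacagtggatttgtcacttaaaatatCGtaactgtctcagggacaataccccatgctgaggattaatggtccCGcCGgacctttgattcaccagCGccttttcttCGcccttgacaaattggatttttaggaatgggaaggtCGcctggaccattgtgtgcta
They hold 10 and 7 CG dinucleotides, fewer than the members' median of 17 but more than the median of 6 over all 32851 promoters. Other members with few were Kdm4c (0), Kdm8 (7) and Prdm10 (8).

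**Figure D3:**
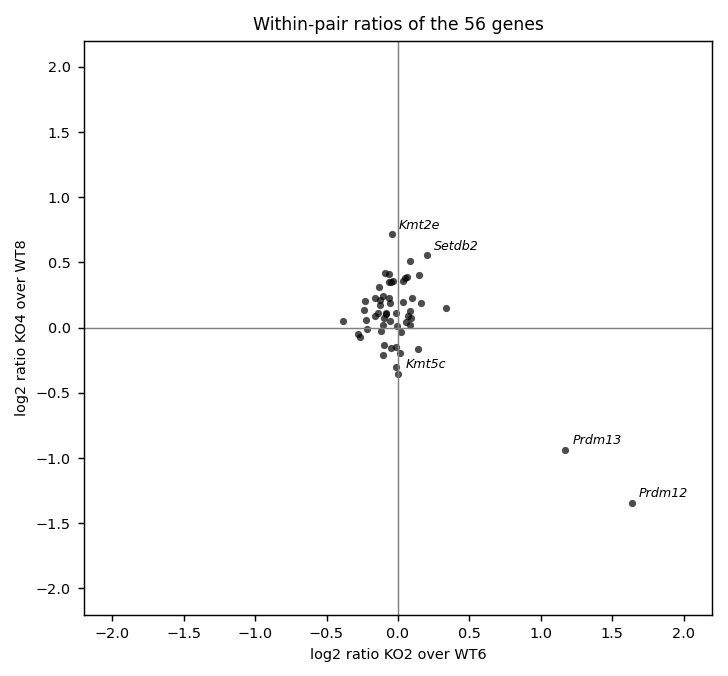
Log2 ratio of KO2 over WT6 (horizontal) against KO4 over WT8 (vertical) for the 56 genes, 1 point per gene, from CPM with a prior count of 2. Prdm12 and Prdm13 stand alone at the lower right (1.63 and -1.34, 1.17 and -0.94), and most other genes lie above 0 on the vertical axis.

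The pairs otherwise differed in which side the members took. In KO2 over WT6 the median log2 ratio of the 56 was -0.05 and 21 were above 0, while in KO4 over WT8 it was 0.11 and 41 were above 0. Over all tested genes these medians were 0.00 and 0.01. By the authors' deposited table, 4 members had an adjusted p under 0.05 on the higher side and 11 on the lower side for KO2 over WT6, beside 9.06% and 9.15% of all genes in both tables. For KO4 over WT8 there were 29 (51.8%, beside 25.2% of all) and 5 (8.93%, beside 16.1%). These p-values compare 2 libraries and not the genotypes. WT8 also had the highest sum of the 6 erythroid markers, none of them at 0, with 992 CPM against 441 to 576 CPM, and the part of this in its values was not tested. It was the lowest of the 4 libraries for 31 members (55.4%), against 34.0% of all tested genes, and KO4 the highest for 24 (42.9%), against 25.8%.

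Fold changes went with base composition and length, in all genes and in these. Members had a median exon length of 6080 bases and a median G+C share of 50.8%, against 4168 bases and 49.7% over all tested genes. Across the 56, the KO over WT log2 fold change had a Spearman rho of -0.56 with the G+C share of the longest transcript and 0.38 with exon length, and across 15687 genes -0.44 and 0.24. Genes share libraries and are not independent, so these are descriptions. Of the 23 members with over 8000 bases of exon, 82.6% had WT8 as their lowest library, beside 54.9% of 2612 genes of that length. With a smooth trend of each library on G+C share and length removed, an alternative chosen after seeing the data, the members' median log2 fold change was 0.00 with 28 above 0, the median for KO4 over WT8 fell from 0.11 to 0.07, and WT8 was lowest for 24 members (42.9%, against 29.3% of all). Of the 56 values, 34 then lay closer to 0 and 22 farther from it. Kmt5b stood at 0.16 (unadjusted p = 0.0520), Kmt5c at -0.06 and Kmt2e at 0.21, all closer to 0. Kdm3b, at 0.18, became the 1 member with an unadjusted p under 0.05 (0.0369, edgeR adjusted p = 0.988). Dot1l (0.10), Setd6 (0.20), Setd1b (0.15), Nsd1 (-0.13), Suv39h2 (-0.15) and Kdm2a (-0.11) were among those farther from 0. Whether base composition or length caused the differences was not tested.

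**Figure D4:**
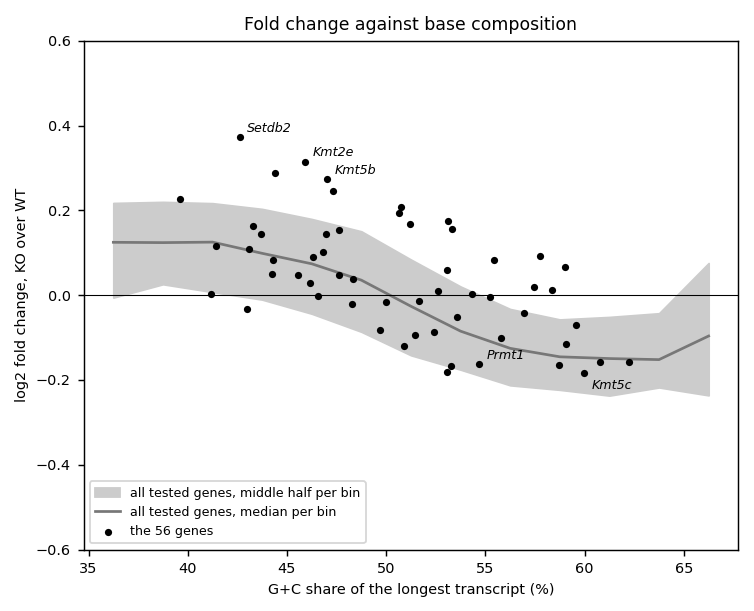
Log2 fold change of KO over WT against the G+C share of the longest transcript, with the 56 genes as black points and all tested genes as the median (line) and interquartile range (band) in bins of 2.5 percentage points. Setdb2, Kmt2e and Kmt5b lie above 0 and above the band, at G+C shares of 42.6% to 47.0%. Kmt5c and Prmt1 lie below 0 and within the band, at 60.0% and 54.7%. Not all members go with the line: Setd1b (59.0% G+C) stands at 0.07 and Suv39h2 (43.0% G+C) at -0.03.

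Genes that work with these enzymes were not called either, beside 0% of all tested genes called higher and 0.00637% called lower. Among 16 other histone methylation enzymes, including Ezh2 (0.09) and Carm1 (-0.12), 0 passed, 7 were above 0 and the median was -0.05. Smyd5 at -0.25 and Jmjd1c at 0.20 had the smallest p. Smyd5 had 53.4 (KO2) and 50.4 (KO4) CPM against 63.8 (WT6) and 59.6 (WT8), and Jmjd1c 51.6 (KO2) and 58.1 (KO4) CPM against 50.1 (WT6) and 45.7 (WT8). Of 22 partner subunits 0 passed and the median was 0.00. Rcor2, a CoREST protein that binds Kdm1a, had 391 (KO2) and 402 (KO4) CPM in KO and 466 (WT6) and 478 (WT8) CPM in WT, both KO libraries below both WT libraries, at a log2 fold change of -0.25 (SE 0.08, unadjusted p = 0.0211, edgeR adjusted p = 0.743), and Zfp644, a partner of Ehmt1 and Ehmt2, stood at 0.23, with 36.1 (KO2) and 40.9 (KO4) CPM against 32.6 (WT6) and 33.3 (WT8). Of 18 readers of histone methylation 0 passed, 13 were above 0 and the median was 0.06. Cbx3, which encodes an HP1 protein bound to methylated H3K9, had 143 and 146 CPM in KO and 123 and 78.5 CPM in WT, which is a log2 difference of 0.53 (SE 0.19, adjusted p = 0.743) in which WT8 was again low (0.24 without WT8, 0.88 without WT6). Ing4 stood at 1.14 on 17 (KO2), 27 (KO4), 13 (WT6) and 5 (WT8) reads.

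Exons of 23 members overlap another annotated gene on the opposite strand, and their counts are uncertain there because no source states that strand was used. Kmt5b shares 927 bases (6.28% of exon length) with the antisense Gm16066, Prdm8 1411 bases (29.1%) with A730035I17Rik, Kdm3b 3468 bases (24.6%) with Gm26538 and Prmt6 984 bases (23.4%) with C130013H08Rik. The shared part was 972 bases (9.31% of exon length) for Kmt2e with Srpk2 and 357 bases (8.10%) for Suv39h2 with Dclre1c. Setd1a shares 3523 bases (51.8% of its exon length) with Gm49388 on its own strand, so that reads there could have been left out or divided in counting.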

How the data were processed

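RNA of 4 embryonic brains (2 KO, 2 WT) was sequenced, and the deposited tables give, per the file headers, a whole-number read count per gene, a normalized value that the values show to be a CPM by the authors, a fold change (linear ratio) by the authors with its log2, and a p-value and adjusted p-value by the authors, with no test named. Per the submitters' processing notes, mm9, HTSeq 0.6.0, TopHat2 2.0.12 and Bowtie2 2.2.3 were used, in roles not stated. Gene positions were identical to GENCODE M21 on GRCm38 for 91.2% of genes and for all 56 members, so GRCm38 is used here.

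Reads per gene (19150 genes shared by the tables) were fitted in R 4.3.3 with edgeR 4.0.16 (quasi-likelihood F-test, TMM, filterByExpr, genotype as the only term, Benjamini-Hochberg over 15708 genes, threshold 0.05). The SE is the log2 fold change over the root of F. Within-pair ratios use log2 CPM with a prior count of 2. The fit was also run on simulated counts drawn from its own means and dispersions. These held no G+C, length or pair effect, so they cannot show how the fit deals with such effects. DESeq2 1.42.0, limma 3.58.1 (voom), other scalings and filters, the deposited pair as a block and the fit without each library were alternatives. Members and lists were chosen with earlier results of these data known. Named with values in every library were, by a rule, the paralog pairs, the smallest p and highest level per length in each group, the 5 largest folds each way, and genes marked by the authors; others were named after their values were seen. Promoter sequences are from RefSeq. Protein sequences were not used here. Some genes, 1 member among them, are counted but not reported by name here.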

Additional observations from a re-analysis of the deposited data

Results flagged for a closer look

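Prdm12 and Prdm13 moved in opposite directions in the deposited pairs, by at least 0.5 on the log2 scale each way. The log2 ratio of Prdm12 was 1.63 in KO2 relative to WT6, and in KO4 relative to WT8 it was -1.34. Prdm13 had 1.17 and -0.94 in the same order, on 6 to 25 reads per library. Each pair holds 1 library of each genotype, and the difference between the pairs was not tested. Opposite ratios of that size were found for 2 of 56 members (3.57%) and for 548 of all tested genes (3.49%).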

How the results depend on the processing

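No member was called in either direction under any of the 13 alternatives, and the smallest adjusted p of a member was 0.0787, without WT8. All-gene counts moved: higher calls were 2 with DESeq2 and 0 to 67 without single libraries, and lower calls were 2 with total count scaling, DESeq2 or the pair as a block and 0 to 37 without single libraries, the top of both ranges being without WT8. The fits without a library take the spread of the lone library from the other genotype. The median log2 fold change of the members ranged from -0.0070 to 0.097 without single libraries, the top being without WT6, and H2afy from -2.29 to -2.16, with its call lost without WT6 (adjusted p = 0.314). Without single libraries the sign changed for Dot1l (-0.053 to 0.10), Kdm1a (-0.077 to 0.055), Kdm2a (-0.17 to 0.14), Kdm4a (-0.15 to 0.052), Kdm5b (-0.013 to 0.12), Prdm8 (-0.36 to 0.027), Prdm12 (-0.75 to 1.13), Setd1a (-0.098 to 0.021), Setd1b (-0.028 to 0.17), Setd3 (-0.10 to 0.18), Suv39h1 (-0.14 to 0.12) and Suv39h2 (-0.18 to 0.11). With total count scaling it changed for Kdm1a (0.022), Kdm2a (0.013), Suv39h1 (0.022) and Suv39h2 (0.0057). After removing the G+C and length trend, without and with the pair as a block, it changed for Kdm5b (-0.057 and -0.057), Nsd2 (-0.054 and -0.054), Setd1a (0.045 and 0.047) and Setd3 (-0.062 and -0.059). None of these genes was called in any fit. A log2 ratio of at least 1 for KO2 over WT6 was held by 2 members where the authors marked 1, also after the trend was removed. Of the 37 genes named by rule, 25 kept their sign without each library, but 17 of these moved by over 1.5 times without at least 1 library, such as Kmt2e (0.074 to 0.61), Kmt5c (-0.34 to -0.0095) and Prmt1 (-0.27 to -0.042), with the value nearer 0 without WT8 and the other without WT6. Ehmt2, H2afy, Kdm3b, Kdm5a, Kmt5b, Prdm10, Rcor2 and Smyd5 did not. The cause of these changes was not tested. The tables give no length column, so the alternative length was not run. The intervals given are not adjusted for the number of genes, so they do not show the smallest change that could have been called with 2 libraries of a genotype. The interval of Kmt5b left out 0, and its edgeR adjusted p was still 0.743.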
